A study of Mus musculus with 4 samples.

Results

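RNA polymerase II (Pol II) was compared between embryonic stem cells with a hairpin against Spt5 (shSpt5) and cells with a control hairpin (shControl). Both libraries were chosen by the knockdown given in the labels, and they are 2 of the 4 libraries of the series. The cells were V6.5 mouse embryonic stem cells of C57BL/6-129 background, infected with a short hairpin RNA about 4 days before fixation. Cells of both groups received 1 µM flavopiridol for 1 h, so the control is a treated culture too. Chromatin immunoprecipitation used an antibody to the amino-terminal end of Rpb1, the largest Pol II subunit, and the recovered DNA was sequenced (ChIP-seq). Per the labels, feeder cells had been absent for 2 passages in shSpt5 and for 1 in shControl, and the file headers name different flow cells. Hairpin, passage and flow cell therefore cannot be told apart. With 1 library in each group there is no replicate error, no p-value was computed, and a ratio compares 2 libraries and not 2 conditions. Spt5 itself was not measured here, and the position lists name no gene, so neither the depletion nor stem cell markers were checked.

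Spt5 pairs with Spt4 in the complex DSIF, which binds Pol II soon after a transcript has begun. Together with the complex NELF it holds Pol II a short way downstream of the start site, in the paused state that is common at genes of embryonic stem cells. The kinase Cdk9 phosphorylates Spt5, NELF and the tail of Rpb1, NELF leaves, and Spt5 then travels with Pol II as an elongation factor. Flavopiridol inhibits Cdk9, so Pol II in treated cells is kept from entering gene bodies. The comparison asks what is found of this held Pol II in cells with a hairpin against Spt5.

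The deposited values were signed positions of aligned reads on the mouse build mm8. Reads numbered 3788237 in shSpt5 and 3486288 in shControl, of which 17.7% and 9.07% repeated a position and strand already seen. One tag was kept per position and strand, which left 3116313 and 3170090 tags. Repeats were more frequent in shSpt5 outside enriched regions too, at 17.3% against 7.53%. The strand offset, a measure of fragment length, was 86 bp in shSpt5 and 82 bp in shControl.

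Enriched regions, stretches where tags piled up well above their surroundings, were called on all 4 libraries pooled at equal depth. There were 13778 of them, with a median width of 700 bp. The median count per region was 26 tags in shControl and 14 in shSpt5. Normalised tags are tags per 1000000 kept tags. A ratio is shSpt5 over shControl, with a 95% interval that covers counting error only. A region was called lower at a ratio of at most 0.5, or higher at a ratio of at least 2, when the interval left out 1. The second scaling set to 1 the ratio of the 608 windows of 1 Mb that held no region. By total tags those windows stood at 1.55 (1.54 to 1.55), with 340704 tags in shSpt5 against 224097 in shControl. Window scaling therefore moves every log2 ratio down by 0.63.

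Pol II tags were fewer at most enriched regions in the shSpt5 library. The regions held 12.4% of the shSpt5 tags (12.3 to 12.4%) and 20.5% of the shControl tags (20.4 to 20.5%). The libraries with hairpins against Spt4 (shSpt4) and a NELF subunit (shNelfE) lay between, at 17.0% and 15.6%. They shared the flow cell and passage number of shSpt5. Windows without a region held 0.124 normalised tags per kb in shControl, 0.191 in shSpt5, 0.164 in shSpt4 and 0.157 in shNelfE. A shift in these directions was thus not particular to shSpt5, where it was largest. The median region stood at a ratio of 0.586 by total tags, with the middle 90% of regions from 0.188 to 1.47. By total tags 3970 regions were called lower and 97 higher, 28.8% and 0.704% of all regions. By window scaling the median was 0.379, with 8509 lower (61.8%) and 17 higher (0.123%). Window scaling divides every ratio by 1.55, so by construction the 3970 lower calls lay within the 8509. The 17 higher calls lay within the 97 for the same reason. With the median region set to 1 instead, 948 regions were lower (6.88%) and 652 higher (4.73%), so the split between directions rests on the scaling. Less Pol II at the regions and weaker enrichment of the whole library would both lower the share of tags in regions, and these cannot be told apart with 1 library.

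Depth sets how much single regions can show. As a worked example, a region at the median ratio with 25 tags in shControl would hold 14 in shSpt5. Its ratio would be 0.570 with an interval of 0.274 to 1.14. With 300 against 173 tags the interval would narrow to 0.484 to 0.710. A total of 50 tags or more over both libraries was reached by 6130 regions. No tag was found in shSpt5 at 149 regions and none in shControl at 8, and at least 6 tags in shControl were needed for 0 tags to give a call.

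**Figure D1:**
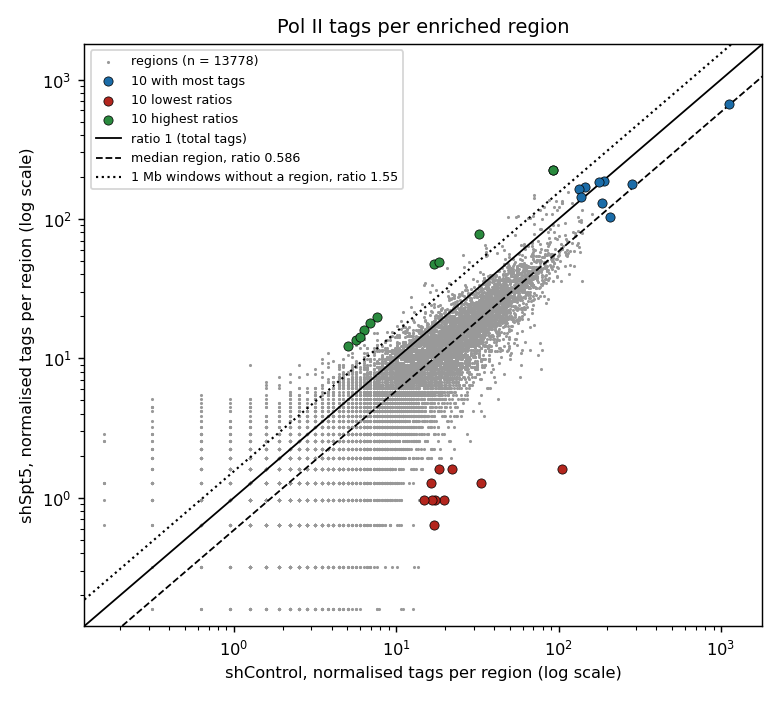
Each point is 1 of 13778 enriched regions, with normalised tags in shControl on the horizontal and in shSpt5 on the vertical log axis. A region with 0 tags is drawn at 0.5 tags. The cloud lies along the dashed line of the median region (ratio 0.586), below the line of ratio 1, and the 10 lowest regions lie far below the cloud.

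The 10 called regions of lowest ratio, among those holding 50 tags or more in both libraries together, were nearly empty in shSpt5, with 2 to 5 tags against 47 to 334 in shControl. They were chosen for their ratio and are described without a test. The lowest was on chromosome 13, 44913351 to 44914450, where the library values were 105 normalised tags in shControl, 1.60 in shSpt5, 28.7 in shSpt4 and 50.7 in shNelfE. The shSpt4 and shNelfE libraries, from cells with hairpins against Spt4 and against a NELF subunit, thus lay between the pair there. Its ratio was 0.0152 (0.00491 to 0.0359), or 0.00985 by window scaling. Tags close to the summit, within 500 bp, went from 327 in shControl to 5 in shSpt5, and the flanks at 1 to 3 kb from 74 to 11. The nearest region, 33.3 kb away, held 8 and 4 tags, too few to compare.

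The other 9 lowest regions had ratios from 0.0377 to 0.0877. On chromosome 8, 35310401 to 35311250, tags within 500 bp of the summit went from 55 to 3, while the flanks went from 69 to 33. The centre was nearly empty there while tags remained beside it. On chromosome 11, 8332851 to 8334250, values were 18.3 normalised tags in shControl, 1.60 in shSpt5, 7.18 in shSpt4 and 19.1 in shNelfE. The shNelfE level was that of the control there, with a ratio of 1.04 (0.709 to 1.53). On chromosome 7, 143315501 to 143316200, values were 17.0 in shControl, 0.642 in shSpt5, 15.5 in shSpt4 and 11.6 in shNelfE, so that only shSpt5 was far from the rest. The nearest region to it, 42.9 kb away, held 72 tags against 140, a ratio of 0.523 (0.388 to 0.700). On chromosome 3, 41709951 to 41711500, shSpt5 held 1.28 normalised tags against 33.4, and the neighbour 8.45 kb away was low as well, with 8 tags against 43 (0.189, 0.0769 to 0.407). On chromosome 11, 104149951 to 104150850, with 3 tags against 47, the neighbour at 24.45 kb held 6 against 36 (0.170, 0.0584 to 0.406).

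The remaining 4 were also nearly empty in shSpt5. Chromosome 19, 47067801 to 47068650, held 3 tags against 55 (ratio 0.0555), and chromosome 11, 59007501 to 59008400, held 5 against 70 (0.0727). Chromosome 7, 24548801 to 24549500, held 4 against 52 (0.0783). The last, on chromosome 9 at 114957801 to 114958550, had a ratio of 0.0576. It had 53 tags within 500 bp of its summit and 2 in its flanks in shControl, a solitary peak, and 6 and 5 in shSpt5. Over the 10 regions the ratio of shSpt4 to the same control ran from 0.273 to 0.909 and that of shNelfE from 0.432 to 1.04. These comparisons share the control library, so its high count at a chosen region lowers all of them. Across all regions, 792 had an interval wholly below 0.5 (5.75%) and 49 wholly below 0.25 (0.356%).

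**Figure D2:**
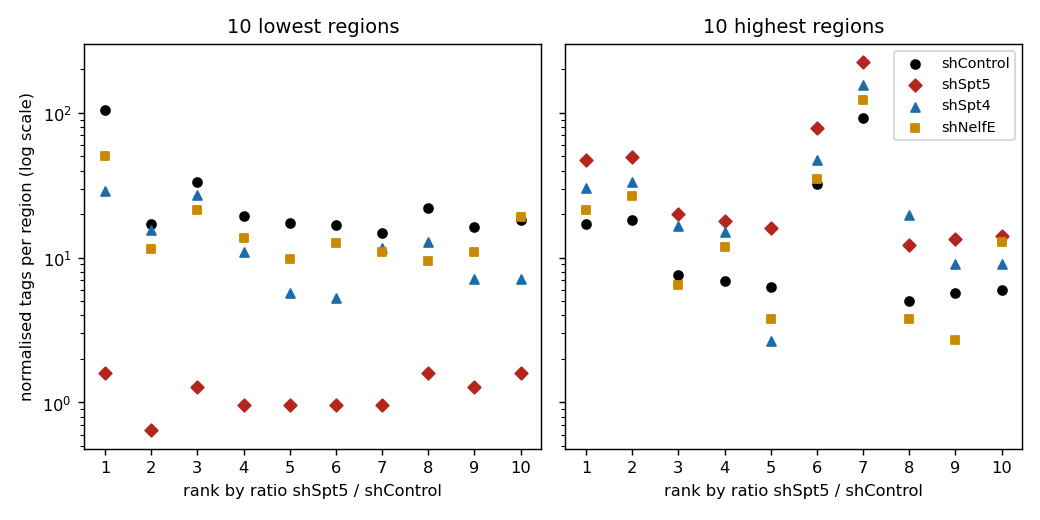
Normalised tags on a log axis in shControl, shSpt5, shSpt4 and shNelfE at the 10 regions with the lowest (left) and the 10 with the highest (right) ratio of shSpt5 to shControl. On the left the shSpt5 points lie apart from the other 3 libraries, at 0.642 to 1.60 normalised tags. On the right shSpt5 is highest at all regions but rank 8, where shSpt4 is higher.

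Regions that went the other way were few. Of the 97 higher ones 4 were mitochondrial, out of 5 mitochondrial regions. Another 11 were among the 27 regions counted within 100 kb of the first tagged position of a chromosome. Both shares were far above the 0.704% of all regions called higher. Most of the 11 lay close together on chromosome 9, and none of them on chromosome 11 or 17. They therefore do not describe chromosome starts at large. This class was formed after some of its members had been seen among the highest ratios. The 48 nuclear regions with no other summit up to 20 kb away made up 49.5% of the 97. That was below the 55.0% of all regions. Among the 10 highest under the same minimum, 3 were stretches of the mitochondrial genome, which Pol II does not transcribe. The highest of these, 14401 to 14900, had 17.0 normalised tags in shControl, 47.2 in shSpt5, 30.2 in shSpt4 and 21.4 in shNelfE, with a ratio of 2.77 (2.01 to 3.86). By window scaling its ratio was 1.79. Over the whole mitochondrial genome shSpt5 held 2056 tags and shControl 893, a ratio of 2.34 (2.16 to 2.54) by total tags and 1.51 (1.40 to 1.64) by window scaling.

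Another pair of the 10 highest lay near the first tagged position of a chromosome. Chromosome 9, 3015051 to 3016250, held 56 tags against 22 (ratio 2.59, 1.56 to 4.45), and chromosome 4, 3016701 to 3018200, held 44 against 19 (2.36, 1.35 to 4.27). The remaining 5 were other nuclear regions. Chromosome 3, 145586551 to 145587600, had 18.3 normalised tags in shControl, 49.4 in shSpt5, 33.2 in shSpt4 and 26.9 in shNelfE, with a ratio of 2.70 (1.98 to 3.72). Its nearest neighbour, 16.85 kb away, held 16 tags against 15. Chromosome 6, 4696951 to 4697800, had 6.31 in shControl, 16.0 in shSpt5, 2.64 in shSpt4 and 3.74 in shNelfE, so that shSpt5 stood above the other 3 libraries. Chromosome 13, 23550101 to 23551100, had 62 tags against 24 (2.63, 1.62 to 4.40), while a neighbour 1.55 kb away had 45 against 54. Chromosome 3, 129208801 to 129209450, and chromosome 6, 52087751 to 52088750, had ratios of 2.42 (1.32 to 4.64) and 2.37 (1.34 to 4.38). The neighbour of the former, 2.15 kb away, was high as well, with 47 tags against 24 (1.99, 1.19 to 3.41). By window scaling the 10 ratios ran from 1.52 to 1.79, and none was called.

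The regions with most tags spanned a wide range of ratios. The 2 with most tags were neighbours on chromosome 17. The first, 39451101 to 39454800, held 2089 tags in shSpt5 against 3573 (0.595, 0.563 to 0.628), and the other, 39456001 to 39456950, 559 against 902 (0.630, 0.566 to 0.701). With all reads kept these ratios were 0.454 and 0.480, so 1 tag per position moved both toward 1. By kept tags both were close to the median region. Chromosome 1, 88357101 to 88360200, at 103 against 208 normalised tags, was lower (0.494, 0.431 to 0.565).

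A second group among these 10 was near or above the control by total tags. Chromosome 13 carried 2 of these. One was at 23745951 to 23747600, with 188 normalised tags in shSpt5 against 190 (0.989, 0.881 to 1.11), and the other at 23562201 to 23563750, with 183 against 177 (1.03, 0.917 to 1.16). Both were sharp peaks. The second had 391 tags within 500 bp of the summit in shSpt5 and 6 in its flanks, against 338 and 6 in shControl. Chromosome 10, 39946801 to 39948550, stood at 1.15 (1.02 to 1.31), chromosome 5, 115750101 to 115751900, at 1.24 (1.09 to 1.41), and chromosome 1, 72187701 to 72189300, at 1.04 (0.908 to 1.19). By window scaling these 5 regions stood at 0.639, 0.667, 0.746, 0.800 and 0.671. With all reads kept they stood at 0.862, 0.971, 1.13, 1.29 and 1.08. The interval of the first was then 0.786 to 0.947, wholly below 1. Chromosome 8, 87551501 to 87553250, in the 1 Mb window with most regions, was at 0.705 (0.619 to 0.802), or 0.588 with all reads kept. The mitochondrial stretch 1751 to 4400 completed the 10, with 223 normalised tags against 91.8. Among the 100 regions with most tags, the one nearest a ratio of 1 was on chromosome 15, 82976551 to 82978150, with 426 tags against 430.

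Regions that kept their tags were more frequent among the most occupied ones. Regions were ranked for this by their tags in shSpt4 and shNelfE, which the ratio does not use. Of the top 100, 26 had an interval wholly above 1 by total tags and 60 wholly below, where the shares over all regions were 1.11% and 43.5%. By window scaling 6 of them were wholly above 1 and 85 wholly below (0.232% and 68.8% of all regions). Among the next 400 by rank, 9 were wholly above 1 by total tags and 342 wholly below. Deeper regions have narrower intervals, so the spread of the ratios is given too. The middle 80% ran from 0.487 to 1.51 in the top 100 and from 0.439 to 0.846 in the next 400. In the lowest rank class, with a median of 14 tags in shControl, it ran from 0.192 to 1.31. Intervals wholly above the ratio of the median region were found at 53 of the top 100, 92 of the next 400 and 9.93% of all regions. Intervals wholly below it were found at 9, 57 and 10.3%. The ranking libraries shared the flow cell of shSpt5. Keeping 1 tag per position had moved the ratios of some of the fullest regions toward 1. Neither these rank classes nor the shapes below were repeated with all reads kept.

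**Figure D3:**
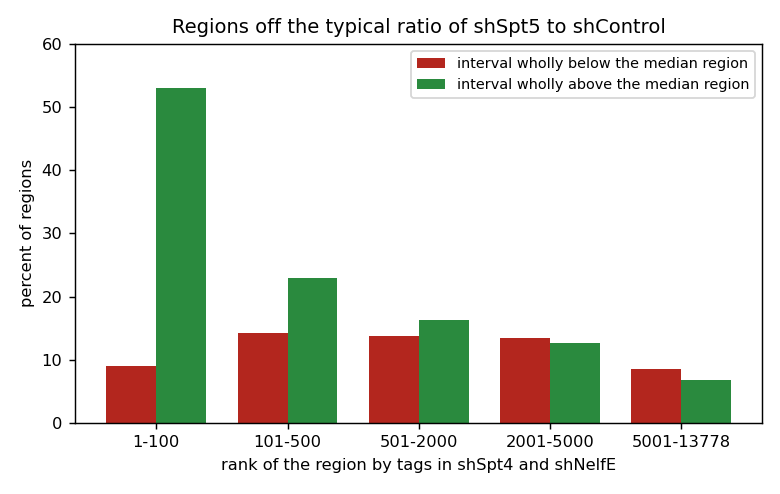
Percent of regions whose 95% interval for the ratio of shSpt5 to shControl lies wholly below (red) or wholly above (green) that of the median region, by rank of the region in shSpt4 and shNelfE. In the top 100 the green bar stands at 53 and the red bar at 9. In the lowest rank class they stand at 6.81 and 8.49.

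The shape of the peak went with this difference. Shape was measured outside the pair, as the focal ratio in shSpt4 and shNelfE, which divides the density of tags up to 500 bp from the summit by that at 1 to 3 kb. Of the top 100, the 26 regions above 1 had a median focal ratio of 92.9 and 22.5 flanking tags. Among them 3 were not sharp, namely 2 mitochondrial stretches at 2.13 and 2.50 and the region on chromosome 5 at 2999901 to 3002500, named after its value was seen, at 8.90. The 60 below 1 had a median focal ratio of 11.8 and 107.5 flanking tags, and their median width was 2025 bp against 1425 bp. Normalised tags at the 26 regions were 85.6 in shControl, 121 in shSpt5, 137 in shSpt4 and 118 in shNelfE at the median. At the 60 they were 112, 61.6, 90.3 and 85.8. The 26 lay on 12 chromosomes, counting the mitochondrial genome, with 8 of them on chromosome 11. That chromosome also held 11 of the 60, and 1126 of all 13778 regions. Only 3 of the 26 had no other summit up to 20 kb away, against 18 of the 60 and 55.0% of all regions. Some of the 26 lay close together, as on chromosome 11 between 87238801 and 87265750. They therefore do not stand for 26 separate places.

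Some of these regions are named after their values were seen. The highest nuclear ratio of the 100 was on chromosome 4, 116687451 to 116688750, with 321 tags against 154 (2.12, 1.74 to 2.59). Chromosome 11, 87258801 to 87260150, held 315 against 205 (1.56, 1.31 to 1.87). The lowest of the top 100 was also on chromosome 4, 132155651 to 132157150, with 112 against 441 (0.258, 0.208 to 0.319). It too was a sharp peak outside the pair, with a focal ratio of 277, so sharp peaks were found on both ends.

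Median ratios and lower calls also followed peak shape over all nuclear regions whose shSpt4 and shNelfE tags summed to 50 or more. In 4 classes of 1357 to 1397 regions, from the lowest focal ratio to the highest, the median of shSpt5 over shControl was 0.549, 0.562, 0.610 and 0.631. Median widths differed little, at 1300 bp in the first class and 1150 bp in each of the others. Calls of lower went from 564 of 1378 regions (40.9%) in the class of lowest focal ratio through 37.9% and 26.5% to 288 of 1378 (20.9%) in the highest. The share over all regions was 28.8%, which includes regions with fewer tags than these classes admit. Intervals wholly above 1 did not follow this order, with 23, 10, 6 and 32 regions in the 4 classes. Median tags in shControl were 66.5 in the class of lowest focal ratio and 96 in that of highest.

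At isolated summits the deficit of tags was narrow by total tags. Regions were called isolated when the nearest other summit lay beyond 20 kb, which left 7573. There shSpt5 had 14.8 normalised tags per kb within 150 bp of the summit and shControl 25.7, a ratio of 0.575 (0.570 to 0.579). From 150 to 500 bp the ratio was 0.667, from 500 bp to 1 kb 0.738, and from 1 to 2 kb 0.906 (0.894 to 0.919). From 2 to 5 kb it was 1.00 (0.991 to 1.01) and from 10 to 20 kb 1.00 (0.996 to 1.01). By total tags the ratio was thus close to 1 beyond 2 kb. By window scaling the same 2 distances stood at 0.647, below the windows without regions, and the summit at 0.372. With the density of those windows taken off each library, the ratios were 0.570 within 150 bp, 0.697 at 500 bp to 1 kb, 0.811 at 1 to 2 kb and 0.842 at 2 to 5 kb. The gradient from summit to flank thus remained. Over all 13773 nuclear regions, where neighbours add their tags, the ratio did not return to 1. It was 0.571 within 150 bp, 0.837 from 2 to 5 kb, 0.808 from 5 to 10 kb and 0.810 from 10 to 20 kb. The summed peak of isolated regions was 240 bp wide at the middle of its height in shSpt5 and 230 bp in shControl.

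Elongating Pol II leaves a trail on the transcribed side of a promoter, but the files give neither promoters nor the direction of transcription. The side with more tags from 500 bp to 5 kb in shSpt4 and shNelfE was therefore called the busier side, at 7259 isolated regions. Whether it was the transcribed side could not be checked. On the busier side shSpt5 held 0.934 normalised tags per kb from 500 bp to 5 kb and shControl 1.13, a ratio of 0.829 (0.822 to 0.836). On the quieter side the values were 0.619 and 0.622, a ratio of 0.995 (0.984 to 1.01). The ratio was thus lower on the busier side. By distance the busier side stood at 0.683 from 500 bp to 1 kb, 0.847 from 1 to 2 kb and 0.957 (0.945 to 0.970) from 2 to 5 kb. The quieter side stood at 0.870, 1.02 (0.994 to 1.04) and 1.05 (1.04 to 1.07) over the same distances. With window density taken off, the ratio from 500 bp to 5 kb was 0.740 on the busier and 0.858 on the quieter side.

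**Figure D4:**
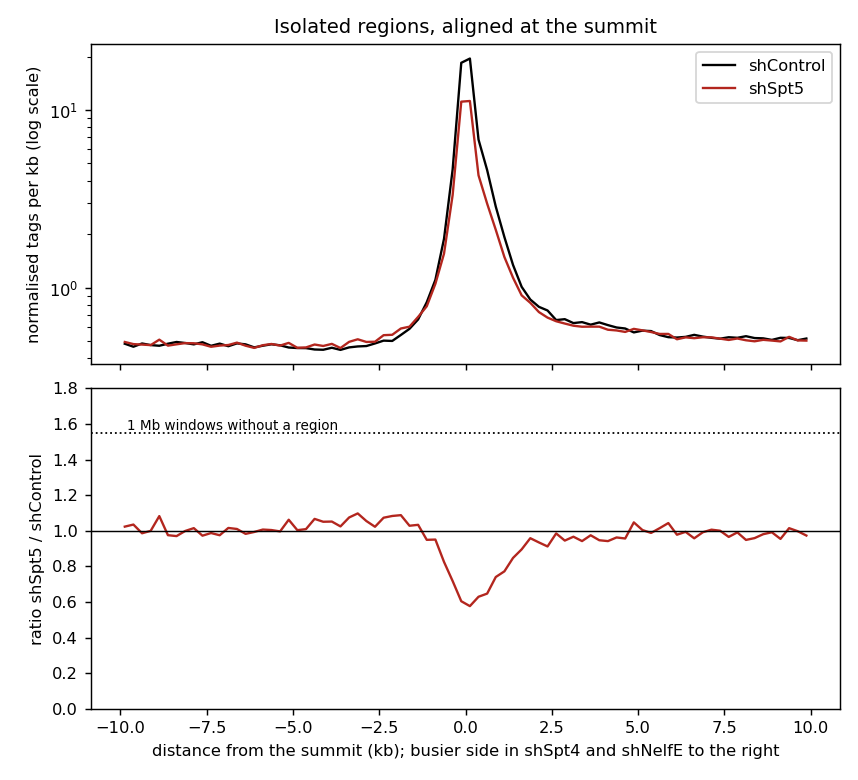
Isolated regions aligned at the summit and turned so that the busier side is on the right. The top panel gives normalised tags per kb on a log axis and the bottom panel the ratio of shSpt5 to shControl in bins of 250 bp, with a dotted line at the 1.55 of windows without a region. The ratio dips at the summit, returns to 1 within about 2 kb on the left and reaches it farther out on the right.

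Regions with more tags on the busier side had a lower ratio there. In 4 classes by tags on the busier side outside the pair, the busier-side ratio went from 1.15 (1.12 to 1.18) through 0.974 and 0.871 to 0.720 (0.711 to 0.729). With window density taken off it went from 0.978 through 0.843 and 0.773 to 0.676. At the summit the same classes stood at 0.638, 0.581, 0.557 and 0.556. Calls of lower made up 17.6% of the first class and 35.1% of the last, beside 26.3% of isolated regions and 28.8% of all regions. The last class also held more tags, with a median of 68.5 in shControl against 13.

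Region by region the focal ratio was lower in shSpt5 too. Its median was 10.9 in shControl and 6.67 in shSpt5, with shSpt4 at 8.81 and shNelfE at 8.58 between them. The difference of shSpt5 from shControl was negative at 73.7% of nuclear regions, with a median of -0.69 on the log2 scale. Where both libraries together held 100 tags or more, the 5 largest drops were at regions with 0 or 1 flanking tag in shControl. Chromosome 11, 54365701 to 54366700, had 86 tags in the centre and 0 in the flanks in shControl, and 43 and 10 in shSpt5. Chromosome 2, 3429301 to 3430750, had 101 and 0 against 73 and 9, and chromosome 6, 134863201 to 134864550, 92 and 0 against 58 and 6. Chromosome 2, 90741051 to 90742300, had 67 and 1 against 35 and 15, and chromosome 17, 12802951 to 12804150, had 100 and 1 against 27 and 7. At these 5 regions tags were fewer at the centre and more in the flanks. They were chosen for the drop in this ratio, and flanks of 0 or 1 tag could hardly lose any.

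At the 5 largest gains of focal ratio the flanking tags were fewer in shSpt5, and so were the central ones. Chromosome 5, 34976001 to 34977450, had 88 central and 7 flanking tags in shControl and 72 and 0 in shSpt5. On chromosome 5, 45808151 to 45809200, flanking tags went from 6 to 0 and central ones from 75 to 54, and on chromosome 4, 52459951 to 52460950, from 3 to 0 and from 64 to 54. The region at 44929601 to 44931100 of chromosome 7 went from 17 to 3 in the flanks and from 59 to 57 in the centre. The region on chromosome 5, 116285001 to 116285900, went from 11 to 1 and from 73 to 44. Flank counts this low carry a wide counting error, and these 5 regions too were chosen for their change.

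The ratios of neighbouring regions were correlated up to 5 kb and less so farther apart, but their typical difference did not follow distance. Among pairs of adjacent summits with at least 50 tags each, the log2 ratios had a Pearson correlation of 0.55 (Spearman 0.47) over 176 pairs 2 to 5 kb apart, and 0.48 (0.39) over 57 pairs closer than that. The values were 0.36 (0.31) over 341 pairs at 5 to 10 kb and 0.14 (0.15) over 818 pairs at 20 to 50 kb. The median absolute difference in log2 ratio was 0.47 below 2 kb, 0.45 at 2 to 5 kb and 0.40 at 5 to 10 kb. It was 0.44 at 10 to 20 kb and 0.47 at 20 to 50 kb. The points come from the same libraries and adjacent regions can share stray tags, so this is a description.

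Lower calls were somewhat more frequent where regions were crowded. With the nearest summit 2 to 10 kb away, 939 of 2891 regions were lower (32.5%), and beyond 20 kb 1988 of 7573 (26.3%), both near the 28.8% of all regions. The crowded regions held more tags in shControl, with a median of 33 against 24, which makes a call easier to reach. The window of 1 Mb with most regions was on chromosome 8, 87000001 to 88000000, where 26 of 52 regions were lower and none higher. Its regions summed to 2773 tags against 5575 (0.506, 0.483 to 0.530), and the tags between them to 3378 against 4574 (0.751, 0.718 to 0.786). The next 4 windows began at 80000001 on chromosome 10, at 73000001 on chromosome 8, at 127000001 on chromosome 7 and at 120000001 on chromosome 11, and held 40 to 46 regions. Their ratios were 0.554, 0.521, 0.529 and 0.494 in regions and 0.731, 0.792, 0.842 and 0.819 between them. In all 5 windows the tags between regions were fewer than in shControl, but less so than the tags in regions.

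Tags far from any region also differed between the libraries, and the difference followed the surroundings. Tags over 20 kb from every summit had a ratio of 1.55 in windows of 1 Mb with no region, 1.32 with 1 to 2 regions and 1.17 with 3 to 5. With 6 to 10 regions it was 1.06, with 11 to 20 it was 0.966, and with 21 to 52 it was 0.921 (0.911 to 0.930). Relative to the empty windows, shSpt5 thus had fewer tags even between regions where regions were dense. The scaling by empty windows takes the highest of these ratios as its unit.

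**Figure D5:**
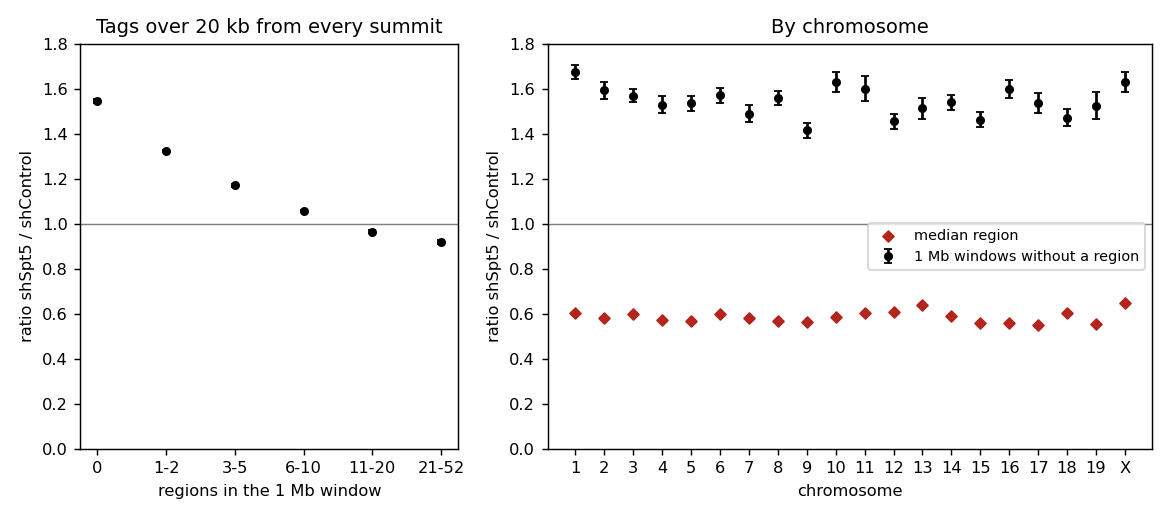
Left, ratio of shSpt5 to shControl for tags over 20 kb from every summit, by the number of regions in the 1 Mb window, with 95% counting intervals. Right, the ratio in 1 Mb windows without a region (black, with intervals) and of the median region (red) for each chromosome. The left panel goes from 1.55 to 0.921, and on the right the black and red points do not overlap on any chromosome shown.

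The ratio varied little between most chromosomes. The ratio of windows without regions ran from 1.42 on chromosome 9 to 1.68 on chromosome 1, and that of the median region from 0.548 on chromosome 17 to 0.647 on chromosome X. Lower calls ran from 23.4% of regions on chromosome 13 to 36.1% on chromosome 19. The 18 regions of chromosome Y, with a median of 6 tags in shControl, had a median ratio of 1.47.

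Called alone at equal depth, shSpt5 gave 6434 regions and shControl 9527. Of the shSpt5 regions 92.8% overlapped one of shControl, and of the shControl regions 62.3% overlapped one of shSpt5. The 3592 regions found only in shControl were weak, with a median of 18 tags there and 6 in shSpt5, while those found in both had 62 and 37. The 461 found only in shSpt5 had a median of 13 tags against 7. Of these 461, 2 were mitochondrial.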

How the data were processed

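Each deposited file lists signed read positions, the sign giving the strand. Reads were aligned with Bowtie to mm8 (-n 2, -l 36, -e 70, -k 2, -m 2), per the file headers; the version, and whether positions count from 0 or 1, are not given in the sources used here. The authors' first read category was used, and their second only for its share, since no header or label says what separates them. After 1 tag was kept per signed position, tags were moved 42 bp toward the fragment centre (a strand offset of 84 bp, measured on chromosomes 11 and 19). Regions were windows of 250 bp on a 50 bp grid, in 4 libraries thinned to 2646944 tags each and pooled, at a Poisson p of 1e-09. The rate was the larger of the genome-wide density over the 2.49 Gb of occupied 10 kb bins and a local density over 5000 bp without the inner 1000 bp. Windows up to 500 bp apart were joined, and the summit was the fullest window. Intervals were exact binomial ones, conditional on the summed tags of both libraries. They cover counting error only, and PCR copies are not independent molecules. Log2 ratios used a pseudocount of 0.5 tags. Background was the tag density of 1 Mb windows without a region, over their 571 Mb of occupied bins. The mitochondrial genome was left out of profiles and focal differences, but not of the shapes of the top 100.

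Named were the 10 regions with most tags in the pair, the 10 lowest and 10 highest called regions with at least 50 tags, the 5 lowest and 5 highest focal differences with at least 100 tags, the 5 densest 1 Mb windows and the region nearest a ratio of 1 among the top 100. Regions on chromosome 18 were counted and not named. The comparison, the rules and the alternatives were chosen with earlier results of these data known. The gene table at hand describes GRCm38, so no gene was named and no sequence printed. The background library of whole cell extract was not used here. Calling and intervals were tested on simulated data. Python 3.11.15, numpy 2.4.6, scipy 1.17.1 and matplotlib 3.10.9 were used.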

Additional observations from a re-analysis of the deposited data

Results flagged for a closer look

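The second read category, which no comparison used, made up 6.96% of the lines in shSpt5 (95% exact binomial interval 6.94 to 6.99%) and 6.72% in shControl (6.69 to 6.75%). It was looked at again because its share in shSpt5 lay above that of the control. The shSpt4 and shNelfE libraries, from the same flow cell as shSpt5, had 6.96% and 6.95%.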

How the results depend on the processing

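Of 89 alternative values, 52 lay outside the 95% interval of the reported value (for counts, moved by over 1.5 times) and 37 did not, and the cause was not tested. Among these values no direction turned, apart from the quieter side, whose interval holds 1 and which lay on either side of it. Outside them, the busier-side ratio of the class with fewest tags there was 1.15, and 0.978 with background taken off. Lower regions (3970) numbered 8509 with scaling to 1 Mb windows, 948 with the median region set to 1 and 1178 over regions from shSpt5 alone. Higher regions (97) numbered 17, 652, 148 with all tags kept, 14 over regions from shControl alone, 45 over regions from shSpt4 and shNelfE, 60 with at least 20 tags and 378 by fold alone. The median log2 ratio (-0.77) was -1.40 by windows, -0.91 scaled to tags outside regions, 0 by construction with the median region at 1, -0.83 with all tags kept, -0.95, -0.54 and -0.79 over regions from shControl, from shSpt5 and from shSpt4 and shNelfE, -0.82 with background taken off and -0.75 with a pseudocount of 1. The share of tags in regions was 12.8, 11.7, 10.2 and 10.7% in shSpt5 and 21.8, 19.3, 18.0 and 17.8% in shControl with all tags kept, a Poisson p of 1e-12, and regions from shControl or from shSpt4 and shNelfE. The ratio within 150 bp of all nuclear summits (0.571) was 0.553 with all tags, 0.567 with background taken off, 0.523 over shControl regions and 0.568 with tags not moved. At 1 to 2 kb it was 0.728 with background taken off. The focal difference (-0.69) was -0.74 with all tags, -0.55 with background taken off, -0.86 and -0.73 over regions from shControl and from shSpt4 and shNelfE, and -0.73 with a narrower centre. The busier side (0.829) stood at 0.740 with background taken off, 0.799 over shSpt4 and shNelfE regions, 0.822 with tags not moved and 0.806 with isolation at 10 kb. The quieter side (0.995) stood at 1.01 with all tags, 0.858 with background taken off, 0.979 over shControl regions and 0.961 with isolation at 10 kb. Windows of 1 Mb (1.55) stood at 1.56 with all tags, and windows of 100 kb at 1.24. At the stricter Poisson p, 94.6% of shSpt5 regions were shared. Chosen after seeing the data were a background from 10 to 20 kb around isolated summits (0.566 within 150 bp, 0.804 at 1 to 2 kb), the side chosen in shControl (0.770 busier, 1.13 quieter) and leaving out the mitochondrial genome. No paired analysis was possible because each group holds 1 library, and for the same reason no replicate could be left out. At 25 control tags, a ratio near the median region cannot be told from 1.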

Other observations

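Regions near the first tagged position of a chromosome were looked at after 2 of them were seen among the highest ratios. Within 100 kb of the first tag, leaving out chromosomes 18, Y and the mitochondrial genome, there were 27 regions, and 19 of them had a ratio above 1 by total tags. They summed to 1778 tags in shSpt5 against 1368 in shControl, a ratio of 1.32 (1.23 to 1.42), which is below the 1.55 of windows without a region. On chromosome 9 all 12 such regions had ratios above 1. The most occupied of them all was at the start of chromosome 5, 2999901 to 3002500, with 462 tags against 225 (2.09, 1.78 to 2.46), and 337 in shSpt4 and 308 in shNelfE. On chromosome 11 the region at 3092701 to 3093950 went the other way, with 156 against 247 (0.642, 0.522 to 0.788).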
